A study of Mus musculus with 2 samples.

Results

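The family described here holds 10 genes of transforming growth factor beta (TGF-beta) signalling, chosen by symbol: the ligands Tgfb1, Tgfb2, Tgfb3 and Inhba, the latent binders Ltbp1 and Ltbp2, the receptors Tgfbr1 and Tgfbr2, and the intracellular proteins Smad3 and Smad7. They were read by 24 of 45037 probe sets on the array, and are 10 of 18193 named genes. Kidney RNA came from 2 groups of mice with 1 Affymetrix array each, so no difference has a replicate check and no test could be run. The control mice had wild-type inv alleles (+/+) and the transgene inv-deltaC::GFP. The cystic mice were inv/inv and carried the same transgene, which encodes inversin, a cilium protein, without its C-terminus and joined to a green fluorescent protein. These cystic mice serve as a model of nephronophthisis type 2, a cystic kidney disease of the young. The age was 4 weeks by the series design and 28 days by the label of the cystic array, and the number of animals behind an array, the strain and the promoter of the transgene are not given in the sources used here.

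TGF-beta ligands are secreted in a latent form, in which a propeptide holds the mature ligand and a latent TGF-beta binding protein ties the complex to the extracellular matrix. Once released, the ligand joins the type 2 receptor Tgfbr2 to the type 1 receptor Tgfbr1, which phosphorylates Smad2 and Smad3, and Smad7 is an inhibitor that the pathway itself induces. In the kidney the pathway is best known for its role in fibrosis, where it drives matrix production by fibroblasts and myofibroblasts.

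In the cystic kidney 6 of the 10 genes rose, that is, they were higher by 2-fold or more: all 4 ligands, Ltbp2 and the receptor Tgfbr2. Ltbp2 has the name of a latent binder but is not known to bind the latent ligand. The signal of Ltbp2 went from 16.9 to 189 between control and cystic kidney. Tgfbr1, Ltbp1, Smad3 and Smad7 were under 2-fold, and no member fell. Over all 12015 measured genes, 7.06% rose and 3.78% fell by that limit. Of the 7 members above the floor for background on both arrays 3 rose (Tgfb1, at 1 of its 2 probe sets, Inhba and Tgfbr2), against 6.15% of all such genes, and the other 3 risen members are lower bounds. With the limit for background set at the 60th percentile of each array, 3 members rose in place of 6. The median log2 ratio (cystic over control) of these 7 was 0.89, against 0.08 over all genes above the floor on both arrays. With the 3 bounds included it was 1.21, against 0.09 over all measured genes. But Tgfb2, Tgfb3 and Ltbp2 were measured only through the cystic array, so their log2 ratios could not be below 0. The members were chosen with earlier results of these arrays known, so this contrast is a description.

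The signal is a linear MAS5 intensity. Each array's median signal served as its floor, at 55.4 (control) and 61.9 (cystic). Probe sets that reached neither floor were called not measured. A signal that missed the floor on 1 array alone was raised to it, which makes the ratio a bound, written as at least N-fold. A gene took the value of its brightest probe set, and "rose" or "fell" means a difference of at least 2-fold. Of the 24 probe sets, 14 were above the floor on both arrays, 5 on the cystic array only and 5 on neither. Each gene had at least 1 measured probe set. Where a gene was above the floor on the cystic array only, a log2 ratio above 0 was fixed by the floors, and 28.6% of the 671 such genes on the array passed 2-fold.

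The labels were checked against their genes, and 1 of them was at odds with the signals. Invs, the mutated gene, went from 118 to 15.9 at its brightest probe set, under the cystic floor. That makes its log2 ratio a bound of -0.93, short of 2-fold. Its other 2 probe sets were not measured, and 1 went the other way (36.0 to 22.1 and 5.4 to 54.2). The cystic array is labelled female, but its 3 Xist probe sets, for the RNA of the inactive X chromosome, were all under the floor, with signals from 2.3 to 57.4. The Y-linked gene Uty had 3 of 4 probe sets above the floor on it, up to 197.6. The control array, which has no sex label, had Xist signals up to 387 and Uty signals up to 205.7. The make-up of the arrays by sex and the genotype cannot be told apart in any ratio below. Both arrays carried strong signals of kidney markers, among them Umod of the thick ascending limb (8712.7 and 8159.6).

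**Figure D1:**
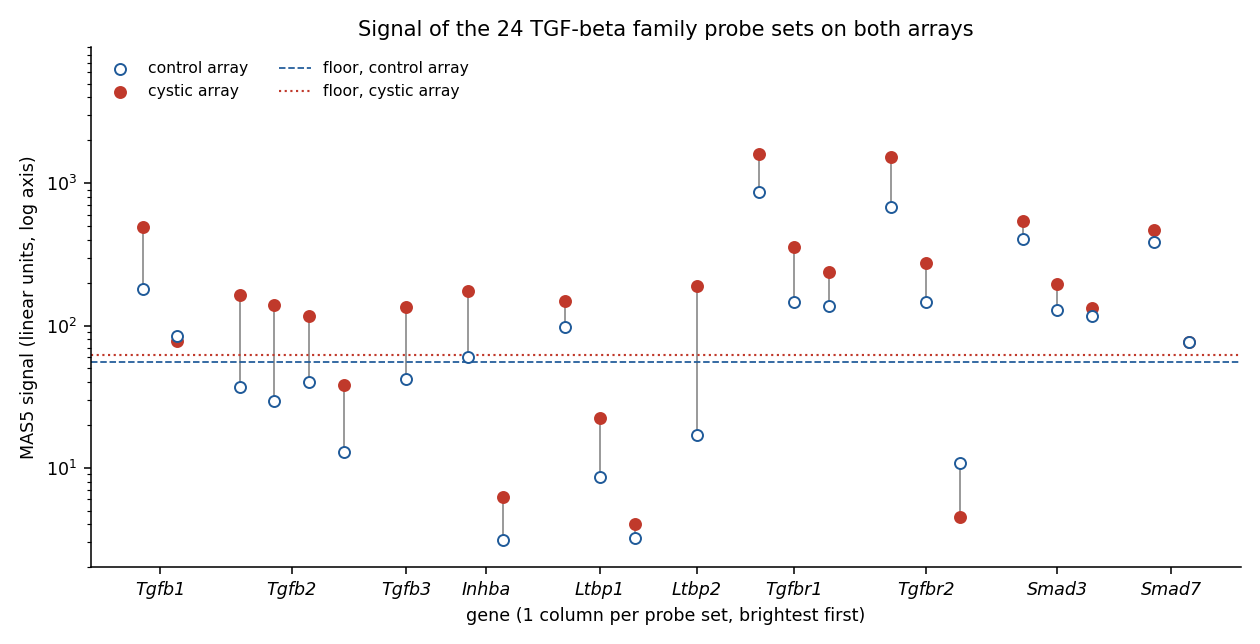
Signal of each of the 24 probe sets on the control array (open circles) and the cystic array (filled circles), on a log axis, with 1 column per probe set and each array's floor as a horizontal line. The cystic signal is the higher of the pair in 21 of 24 probe sets, but 5 of the 24 are under both floors. The same count over all probe sets was not made, so no difference from other genes is read from it. The control signals of Tgfb2, Tgfb3 and Ltbp2 lie under the control floor.

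Promoter sequences are shown for Ltbp2 and for Tgfb2, Inhba and Tgfb1, the ligands that rose and have an entry in the promoter table, because these genes were higher together. Tgfb3, which also rose, has no entry there. Each is the 250 bases upstream of the start in RefSeq's GRCm38.p6 promoter table, read 5′ to 3′ on the strand of the gene. Capitals mark a GC box (GGGCGG, the site of Sp1-type factors) or a Smad-binding element (CAGACA), on either strand.
Ltbp2, chr12:84876492-84876741, - strand: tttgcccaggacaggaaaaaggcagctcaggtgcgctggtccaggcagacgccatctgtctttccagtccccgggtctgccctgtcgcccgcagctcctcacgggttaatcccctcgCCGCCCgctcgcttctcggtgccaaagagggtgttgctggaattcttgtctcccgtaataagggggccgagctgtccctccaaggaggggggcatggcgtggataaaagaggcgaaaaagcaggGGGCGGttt
Tgfb2, chr1:186705990-186706239, - strand: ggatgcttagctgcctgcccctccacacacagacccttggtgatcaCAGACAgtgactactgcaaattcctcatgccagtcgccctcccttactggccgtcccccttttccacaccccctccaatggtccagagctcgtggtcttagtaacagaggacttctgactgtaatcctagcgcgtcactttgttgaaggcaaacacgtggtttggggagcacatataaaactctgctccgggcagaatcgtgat
Inhba, chr13:16011601-16011850, + strand: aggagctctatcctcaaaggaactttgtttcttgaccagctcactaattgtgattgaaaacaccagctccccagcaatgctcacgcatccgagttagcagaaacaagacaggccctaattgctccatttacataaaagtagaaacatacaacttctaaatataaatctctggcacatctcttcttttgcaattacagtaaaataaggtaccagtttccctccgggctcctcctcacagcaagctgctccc
Tgfb1, chr7:25686752-25687001, + strand: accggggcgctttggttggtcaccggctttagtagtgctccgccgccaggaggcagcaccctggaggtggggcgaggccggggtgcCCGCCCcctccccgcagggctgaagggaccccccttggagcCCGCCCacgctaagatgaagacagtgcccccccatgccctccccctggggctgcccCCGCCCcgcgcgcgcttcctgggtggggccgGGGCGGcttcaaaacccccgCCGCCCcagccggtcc

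The table held 10 promoters for 8 of the 10 members, Tgfbr1 and Ltbp1 with 2 starts each. A GC box was found in 4 of these 10 promoters, against 32.7% of all 32851 promoters of the same length. The Tgfb1 promoter held 5 such boxes within 164 bases of the start and the Ltbp2 promoter 2, while the windows of Tgfb2 and Inhba held none. A Smad-binding element was present in 3 of the 10, those of Tgfb2, Ltbp1 and Tgfbr1, against 17.1% of all promoters. The AP-1 motif TGANTCA was in none of the 10 and in 6.75% of all. No motif searched was overlapped by another in the printed windows. The G and C content differed widely among the 4, with 75.2% for Tgfb1, 61.6% for Ltbp2, 53.6% for Tgfb2 and 43.2% for Inhba, and a median of 52.4% over all promoters. None of the 3 motifs was found in the windows of all 4 genes.

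Tgfb1 encodes the ligand best known in kidney fibrosis, and its probe sets disagreed. The brighter, 1420653_at, annotated with a RefSeq mRNA, went from 180.6 to 493.4 between control and cystic kidney, a 2.73-fold rise. The other, 1445360_at, annotated with an expressed sequence tag, had 84.2 and 77.6, a log2 ratio of -0.12 against 1.45 for the first. Both were above the floor on both arrays, the second by a narrow margin. Their gap of 1.57 on the log2 scale was reached by 27 of the 3186 genes with 2 measured probe sets (0.847%). Of the 365 genes that rose and had another measured probe set, 27 (7.40%) had one at or below 0, as Tgfb1 did. Which part of the Tgfb1 transcript each probe set reads was not examined. The median of the pair was 0.67, under 2-fold, so the call for Tgfb1 rests on its brighter probe set.

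Tgfb2, a ligand with its own role in kidney development, was higher at 3 measured probe sets. Signals went from 36.9 to 163.6, from 29.5 to 138.3 and from 40.4 to 115.9. The control signal was under the floor in each, so the ratios are bounds, of at least 2.95-fold at the brightest and at least 2.50-fold and 2.09-fold at the others. The probe set 1438303_at, with 13.0 and 38.2, was not measured, and its signal was again higher on the cystic array. The control signals of all 4 Tgfb2 probe sets were thus under the floor, and the cystic signals of 3 were above it. The 2 probe sets marked as shared (1423250_a_at and 1450922_a_at), whose probes match alternative transcripts, had the higher ratios of the 3 measured.

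Tgfb3, the third TGF-beta isoform, was read by 1 probe set, whose signal went from 41.8 to 134. It was at least 2.42-fold higher, a bound that gives it no rank among the ligands (log2 ratio 1.27, and 1.68 with no floor). Inhba encodes the beta A chain of activin A, a ligand that signals through its own receptors to the same Smad2 and Smad3. Its probe set 1422053_at went from 59.9 to 174, a 2.90-fold difference. The control signal of Inhba lay only just above the control floor of 55.4. Its second probe set had 3.1 and 6.2 and was not measured. All 4 ligands rose, but Tgfb2 and Tgfb3 were bounds and Inhba was close to one, so Tgfb1 alone had a control signal well above the floor.

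The latent binders differed from each other. Ltbp2, a matrix protein that joins elastic fibres and, unlike Ltbp1, is not known to bind the latent ligand, had 1 probe set. It went from 16.9 to 189 and was at least 3.41-fold higher. With no floor its log2 ratio would be 3.48 rather than the bound of 1.77, the largest effect of the floor on any member. Ltbp1, which ties latent TGF-beta to the matrix, went from 98.1 to 149.6 at 1448870_at, a log2 ratio of 0.61. Its other 2 probe sets were not measured, with control signals of 3.2 and 8.6 and cystic signals of 4.0 and 22.3. Ltbp1 was higher but did not pass 2-fold.

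The receptors lay on either side of 2-fold at their brightest probe sets. Tgfbr2, the type 2 receptor that binds the ligand first, went from 681.7 to 1515.1 at 1426397_at, a 2.22-fold rise, and from 145.4 to 273.9 at 1425444_a_at, which is 1.88-fold. A further Tgfbr2 probe set, 1422019_at, had 10.8 and 4.5 and was not measured. With the arrays centred on their medians Tgfbr2 had a log2 ratio of 0.99, just short of 2-fold. Tgfbr1, the type 1 receptor kinase, went from 865.3 to 1598.4 (log2 ratio 0.89) at its brightest probe set. Its other probe sets went from 147.1 to 353.6 (1.27) and from 137.8 to 238.8 (0.79), so 1 of 3 passed 2-fold. The 5 measured receptor probe sets had log2 ratios from 0.79 to 1.27, above the floor on both arrays. The receptors thus had similar ratios, and the 2-fold limit separated them.

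The intracellular members were under 2-fold. Smad3, which carries the signal to the nucleus, went from 405.7 to 540.0 (0.41), from 128.1 to 194.2 (0.60) and from 116.2 to 133.3 (0.20). Smad7, the inhibitory Smad that feeds back on the receptor, went from 383.5 to 470.6 (0.30) at one probe set and from 77.0 to 76.0 (-0.02) at the other. No Smad3 or Smad7 probe set passed 2-fold. Where neither signal was raised to a floor, log2 ratios of the brightest probe sets were 0.89 and 1.15 for the receptors and 0.41 and 0.30 for the Smads, and 1.45 and 1.54 for the ligands Tgfb1 and Inhba. With the floor at the 60th percentile Inhba was a bound of 0.98, and Tgfb1 had 0.67 by the median of its probe sets, so the order of ligands and receptors changes with the processing.

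**Figure D2:**
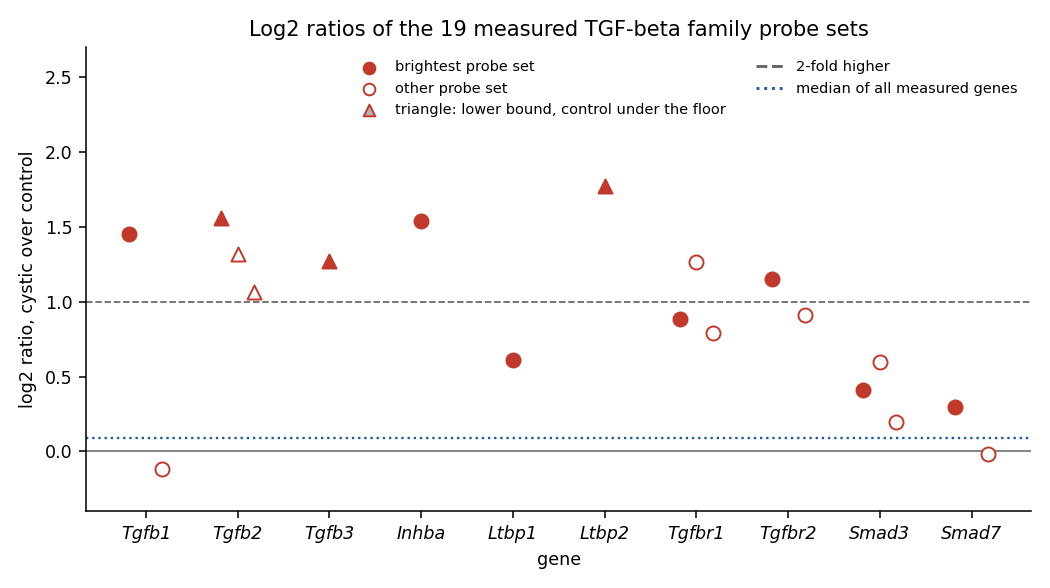
Log2 ratio, cystic over control, of the 19 measured probe sets by gene. Filled symbols are the brightest probe set of a gene, triangles are lower bounds, the dashed line is 2-fold and the dotted line the median of all measured genes. Of the 19, 9 are at least 2-fold higher, 5 of them bounds, and the second probe sets of Tgfb1 and Smad7 lie below 0.

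The spread between probe sets of 1 gene gives the only repeat measurement, and it is technical. Over the 5428 genes with more than 1 measured probe set, the pooled SD of the log2 ratios was 0.32 and the median range 0.35. Smad7 and Tgfbr2, with ranges of 0.31 and 0.24, were under that median, and Tgfb2, Tgfbr1 and Smad3 (0.50, 0.47 and 0.40) above it. Bounds were included, and the Tgfb2 values were all bounds. Tgfb2, Tgfbr1 and Smad3 had 3 measured probe sets each, and a range tends to widen with that number. Of the 6 members with a second measured probe set, only Tgfb1 had a range over 1. Of the 14 family probe sets above the floor on both arrays, 4 were at least 2-fold higher, against 5.36% of all 20721 such probe sets, and none was at least 2-fold lower. The other 5 measured probe sets, 3 of Tgfb2 and 1 each of Tgfb3 and Ltbp2, were bounds measured only through the cystic array, and all 5 passed 2-fold. Together they make 9 of 19, against 6% of all 24332 measured probe sets.

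The other genes of the pathway were followed in 5 lists with 98 genes, of which 85 were measured. In all, 32 rose (37.6%) and none fell, against 7.06% and 3.78% of all measured genes, and the median log2 ratio was 0.56, against 0.09. Of the 79 above the floor on both arrays 29 rose, against 6.15% of all such genes, and the other 3 risen genes were bounds. As with the members, these lists were drawn up with earlier results of these arrays known. Genes with no probe set of their own in the annotation used here are left out of the counts.

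In the list for latency and activation, the median log2 ratio was 0.84, with 6 of 17 measured genes risen and none fallen. The shares over all measured genes were 7.06% and 3.78%. The highest were Thbs1, thrombospondin 1, which can activate latent TGF-beta (259.3 to 1494.3, 5.76-fold), and the membrane protease Mmp14 (158.6 to 749.6, 4.73-fold). Emilin1, an elastic fibre protein that restrains processing of the ligand precursor, was 4.29-fold higher. The protease Bmp1 had a log2 ratio of 2.06 at its brightest and 0.55 at its second probe set. Itgb8, the beta chain of an integrin that activates latent TGF-beta, had the lowest log2 ratio, -0.68 (2130.6 to 1325.4), followed by the gelatinase Mmp9 with -0.31. Itgb6, the beta chain of another activating integrin, had 0.16, and Furin, the protease that cleaves the precursor, 0.00. The paralogous binders Ltbp3 and Ltbp4 had 0.84 and 0.29. Itgb6, Furin, Ltbp3 and Ltbp4 were named after their values were seen.

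Of the related ligands and ligand traps, 6 of 11 rose, none fell, and the median was 1.42. By the same limit 7.06% of all measured genes rose and 3.78% fell. Inhbb, the beta B chain of activins, went from 32.8 to 283 at its brightest probe set, at least 5.11-fold, and had a log2 ratio of 1.002 at its second. With no floor the second would count as the brightest, so the larger value of Inhbb depends on the floor. Fstl1, a secreted follistatin-like glycoprotein, went from 534.0 to 2277.8, a 4.27-fold difference. The proteoglycans Bgn and Lum, of which biglycan can bind TGF-beta, were 2.81-fold and 2.79-fold higher. Fst, follistatin, which binds and blocks activins, was 2.69-fold higher and was named after its value was seen. Fstl3 had a log2 ratio of 0.03, and Gdf11 a bound of 0.20. A chain of activin and a trap of activin were therefore both higher on the cystic array.

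Among the other receptors and co-receptors none of 8 passed 2-fold in either direction, and the median was 0.28. With 7.06% of all measured genes risen and 3.78% fallen, no difference from other genes is read from that count. Eng, the endothelial co-receptor endoglin, came nearest with 0.94 (570.6 to 1091.3; second probe set 0.52). The activin receptor genes Acvr1 and Acvr2b had 0.52 and a bound of 0.42, and the pseudoreceptor Bambi had 0.28. Acvr1b and Acvr2a, the type 1 and type 2 receptors of activin, had -0.08 and -0.20. The second Acvr2a probe set had 0.37, so its direction was not settled.

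In the list of Smads and their regulators 3 of 20 rose, none fell, and the median was 0.34. The count was 2 with quantile normalization, with the floor at the 60th percentile and without shared probe sets, so with 7.06% of all measured genes risen no difference from other genes is read from it. The 3 were Pmepa1, a target gene that dampens Smad signalling (232.7 to 582.1, 2.50-fold), and the transcriptional corepressors Tgif1 (2.29-fold) and Tgif2 (2.25-fold). Smad2 had a log2 ratio of 0.57, near that of Smad3. Wwp1, a ubiquitin ligase that targets the type 1 receptor, had -0.90 (1203.2 to 646.1), and Zfyve9, which brings Smad2 and Smad3 to the receptor, -0.25.

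The list of known target genes had the widest differences, with 17 of 29 higher and none lower at 2-fold, and a median of 1.27. Among all measured genes 7.06% were higher and 3.78% lower. Of the 29, 3 were bounds, and 15 of the other 26 rose, against 6.15% of all genes above the floor on both arrays. Tagln, which binds actin in smooth muscle, went from 164.1 to 2296.4 (14.0-fold). Timp1, an inhibitor of matrix proteases, was at least 10.1-fold higher, Tgfbi, a matrix protein named for its induction by TGF-beta, 8.06-fold (100.4 to 808.9), and the collagen chain Col1a1 7.20-fold at its brightest probe set (log2 ratio 2.85, and 1.57 at its second). Igfbp3 had a log2 ratio of 0.01 and Id2, which TGF-beta represses in epithelial cells, -0.49. Id1 and Id3 of the same list went the other way from Id2, with 0.28 and 0.996. Both were named after their values were seen. The genes of this list have many other inputs, and the list does not measure the activity of the pathway.

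**Figure D3:**
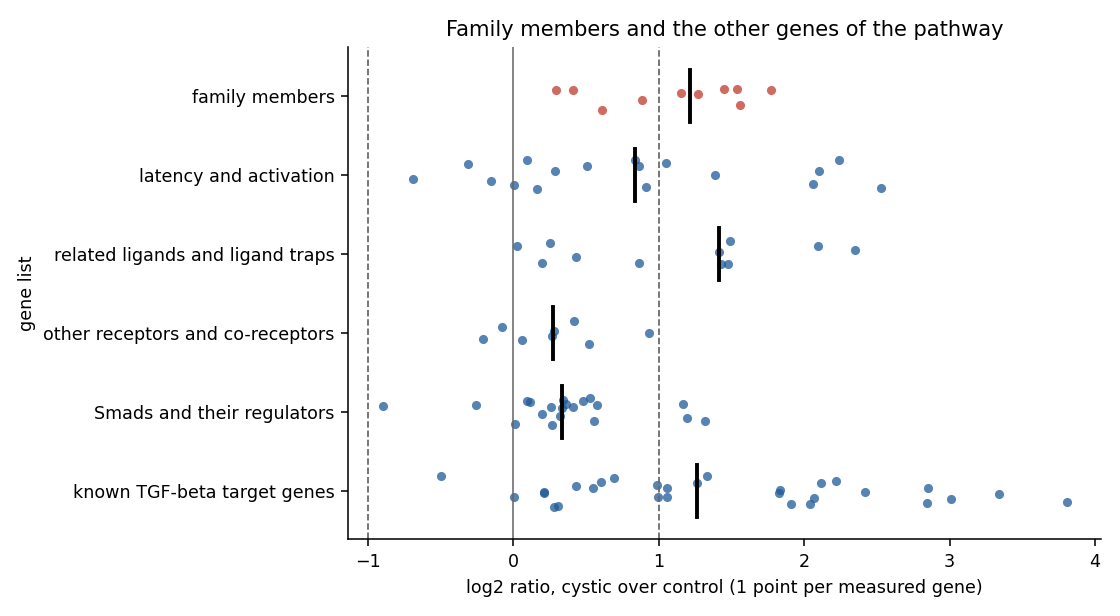
Log2 ratio, cystic over control, of each measured gene in the family and in the 5 pathway lists, with the list median as a vertical bar and 2-fold as dashed lines. The family median, which includes 3 bounds, is 1.21, those of target genes and of related ligands and traps are 1.27 and 1.42, and those of the other receptors and of the Smads and their regulators are 0.28 and 0.34.

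Signals of cell type markers also differed between the arrays, and in whole kidney RNA more cells of a type and more RNA per cell cannot be told apart. The counts below stand beside 7.06% of all measured genes risen and 3.78% fallen. Fibroblast and mural cell markers rose in 5 of 9 measured genes, and their summed signal went from 3649.3 (control) to 14092.3 (cystic). Vim was the highest with a log2 ratio of 2.46, and Des had a bound of 0.25. Macrophage markers rose in 9 of 11, with summed signals of 2199.6 and 10758.3, led by Lyz2 (4.00), with Itgam at a bound of 0.49. Proximal tubule markers fell in 5 of 9, with summed signals of 42916.1 and 22938.4, from Slc22a6 (-2.06) to Slc27a2 (-0.52).

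The summed marker signals of the other cell types moved less. No endothelial marker of 7 passed 2-fold, with summed signals of 2268.7 and 2339.7 and log2 ratios from -0.19 (Flt1) to 0.43 (Pecam1). Platelets store TGF-beta, and of their markers 1 of 4 rose. Pf4, which macrophages can also express, had 2.12 (88.7 to 385.5), while Itga2b had -0.63 (189.1 to 122). The summed platelet signals were 421.1 and 643.9, and the higher cystic sum came from Pf4. Of 5 T cell markers only Cd8a was measured, with a bound of -0.36, and the summed signals were 159.4 and 102.2. Markers of the loop, distal tubule and collecting duct fell in 1 of 7, with summed signals of 24811.9 and 18055.2, from Calb1 (-2.03) to Aqp2 (0.29). Podocyte markers fell in 1 of 4, with 1442.7 and 1010.7, from Nphs1 (-1.07) to Synpo (0.65). With 7.06% of all measured genes risen and 3.78% fallen, no difference from other genes is read from these counts of 0 or 1. No marker was at a signal of 0 on either array. The part of these cell types in the ratios of the family was not tested.

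**Figure D4:**
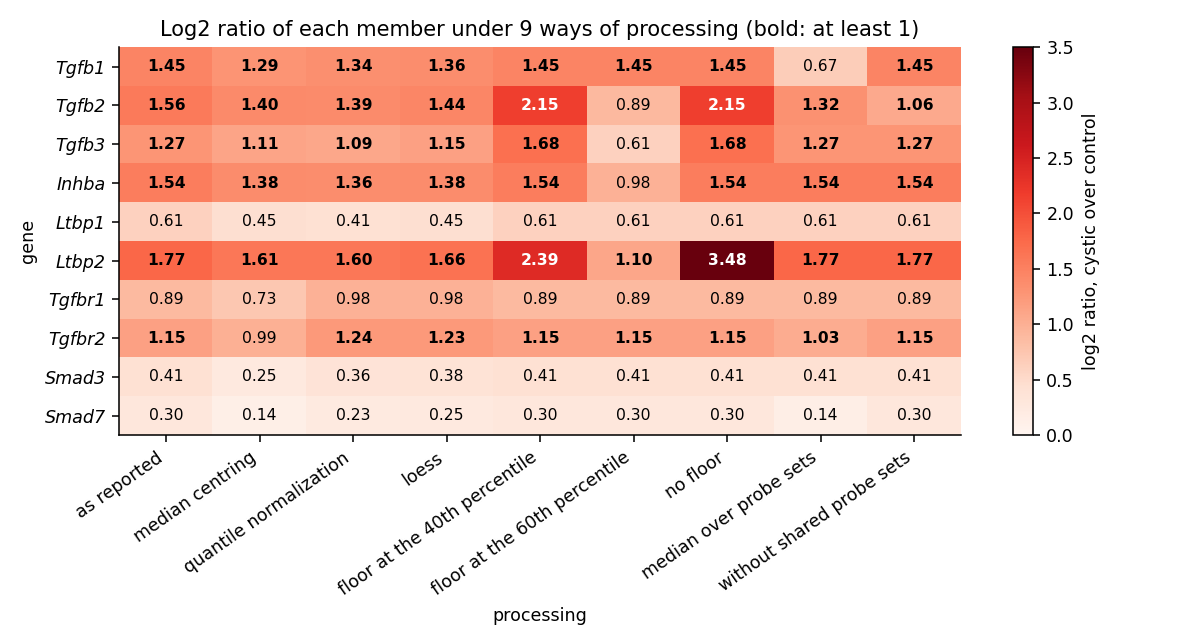
Log2 ratio of each member under the processing reported and 8 alternatives, with values of at least 1 in bold. Each member stays above 0 in every column, which is nearly fixed where the control signal of Tgfb2, Tgfb3 or Ltbp2 was raised to a floor. Ltbp2 alone is at least 1 in all 9, and Ltbp1, Tgfbr1, Smad3 and Smad7 are under 1 in all 9.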

How the data were processed

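Kidney RNA was measured on 2 arrays, 1 control and 1 cystic, grouped by their titles. Per the submitters' processing notes, the authors made the deposited intensity values with MAS5, on a linear scale; its version, its scaling target and any detection call are not given in the sources used here. Of 45101 probe sets, 64 control probe sets were left out. The deposited scaling was kept, with 2% trimmed means of 178 and 181. Probe sets were named by the platform annotation: 34945 named 1 gene, 932 several and 9160 none, and symbols of 34741 were updated by gene identifier in a RefSeq table of GRCm38.p6. The brightest probe set of a gene was that with the highest mean log2 signal after the floor.

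With 1 array per group no test was run, and the number of arrays limits the precision. Members and lists were chosen with earlier results of these data known. Named were all members, from each pathway list the 4 genes furthest in the direction of its median and the 2 furthest the other way. The highest and lowest marker of each cell type were named too, and others were named after their values were seen. Bounds were ranked at their bound value, so a bound named as lowest may not be the lowest. The alternatives were median centring, quantile normalization, loess, floors at the 40th and 60th percentile, no floor, the median over probe sets, and no shared probe sets (suffix _s_at, _x_at or _a_at). The planned description of the ligand proteins was not made. The steps were tested on simulated data. Python 3.11.15, pandas 2.3.3, NumPy 2.4.6 and statsmodels 0.14.6 were used.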

Additional observations from a re-analysis of the deposited data

How the results depend on the processing

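At the value taken for each gene, all 10 members kept a log2 ratio above 0 under all 8 alternatives. For Tgfb2, Tgfb3 and Ltbp2 this was nearly fixed wherever their control signal was raised to a floor. With no floor they had 2.15, 1.68 and 3.48. The share of all genes that stayed above 0 was not counted, and the second probe sets of Tgfb1 and Smad7 were below 0. The count of members at least 2-fold higher stayed at 5 or 6 except with the floor at the 60th percentile, where it was 3 (Tgfb1, Ltbp2 and Tgfbr2) and the members' median 0.89, because raising the floor lowers a bound; there Inhba had 0.98, Tgfb2 0.89 and Tgfb3 0.61. With no floor, 2098 genes were higher and 1667 lower in place of 848 and 454, since all 18193 genes then counted as measured, and 1 gene of the other receptors rose. The median of related ligands and traps was 0.87 with the floor at the 40th percentile and 1.002 with none. Median centring moved the median of all genes from 0.09 to -0.07, the higher share of all genes past 2-fold from 65.1% to 47.5%, and the fallen genes among Smads and their regulators from 0 to 1. With it 5 members were at least 2-fold higher, as 5.06% of all genes were. The higher share was 55.9% with quantile normalization and 55.7% with no floor. Of the 160 values for counts and medians, 152 stayed within 1.5 times the reported count or within the SD of 0.32 between probe sets. Among the 160 are counts of fallen genes that were 0 throughout. Of the members' own log2 ratios, 68 values stayed within that SD and 12 did not, all of Tgfb1, Tgfb2, Tgfb3, Inhba or Ltbp2. No paired analysis was possible because each group has 1 array. Signal close to the floor limits Tgfb2, Tgfb3, Inhba and Ltbp2.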
